A study of Schmidtea mediterranea with 50 samples.

Results

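The 80 transcripts described here were those whose RNA was lowest in planarians 3 and 6 days into *p53*(RNAi). Each transcript was given the mean difference from control, on the log2(RPKM + 0.5) scale, over days 3 and 6, where RPKM is a read count scaled to transcript length and library size. Of 35057 transcripts in the data set, 17616 had a mean of 2 RPKM or more over the 50 libraries and were ranked, and the 80 with the lowest values were taken. Because the *p53*(RNAi) and control libraries of days 3 and 6 chose the members, their values on those days are given as a description without a test. The selecting value ran from -2.76 to -0.89. The last members inside were SMED30007040 at -0.90 and SMED30012767 at -0.89, and the first transcripts outside were SMED30008800 at -0.89 and SMED30005357 at -0.89.

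Whole worms of the asexual CIW4 strain of *Schmidtea mediterranea* were fed double-stranded RNA on days 0, 3 and 6, and RNA from 10 pooled worms made up a library. Worms taken on day 3 had therefore not had all 3 feedings, and whether those of day 6 were taken before or after the last feeding is not given in the sources used here. All worms were of the same strain and received RNAi food. They differed in the target, which was *p53*, *chd4* or, as control, *unc22*, a gene of the nematode *C. elegans*. Control worms and *p53*(RNAi) worms were sampled on days 3, 6, 9, 12, 15 and 18, and *chd4*(RNAi) worms on days 3, 6, 9, 12 and 15. Each group had 3 libraries, described as biological replicates, except *p53*(RNAi) at day 18, which had 2. RNAi lowers a transcript without removing the gene, so no group is a null mutant.

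Planarians replace their tissues from neoblasts, the only dividing cells of the adult. Cells that leave the neoblast pool toward the epidermis first express early progeny markers, then late progeny markers such as *AGAT-1* while still in the mesenchyme, and finally join the epidermis. *p53* encodes a transcription factor of the tumour suppressor family, expressed in neoblasts and their progeny, and *chd4* encodes a chromatin-remodeling helicase. Both genes are known from earlier work as needed for neoblast progeny.

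Little is known about most of the 80 transcripts. A Swiss-Prot description was given for 16 and a whole-mount in situ pattern for 28, and 45 had no description, pattern or gene name. Of the 28 patterns, 21 included *AGAT-1*-like cells of the mesenchyme. The genes for in situ hybridization were picked by the study from transcripts that fell in these same libraries, so the patterns are not an independent sample. The transcripts ranged from 124 to 4088 bases with a median of 626, as recovered from the step between RPKM values. Their means over all libraries ran from 2.05 to 1108 RPKM with a median of 16.3, with 16 members above 100 RPKM and 28 below 10 RPKM.

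Cloning primers were given for 28 members, and those of 6 are shown because these transcripts carry the comparisons by known tissue or function below. They are given 5′ to 3′ in lower case as the study lists them, and each pair names the fragment that was cloned. SMED30024165 was the highest-ranked member with an in situ pattern, SMED30002242 and SMED30028142 (*zpuf-3*) were *AGAT-1* mesenchymal members with a description or a name, SMED30025603 had the lowest *chd4*(RNAi) change at day 15, SMED30034490 is described as a fibroblast growth factor receptor and SMED30032169 as *gatm*.
SMED30024165 forward: gattagcaccagcagcaaag
SMED30024165 reverse: cttctttagttttcggaggg
SMED30002242 forward: gtctactttgcggtgctctctac
SMED30002242 reverse: gcctctcaaatgaatgcgactc
SMED30028142 forward: gtcaagaaaagtactataacgtattcgag
SMED30028142 reverse: tagaaacttaaatgtcgacttcgtac
SMED30025603 forward: gagcgaatataaagcactgtgtaatc
SMED30025603 reverse: ttatgctcttccaaatcgttgtc
SMED30034490 forward: ggtcagtttcagtgggaactc
SMED30034490 reverse: acactttccagttggttgac
SMED30032169 forward: gcagaatccaagtttggtagg
SMED30032169 reverse: caactaggaccctctctgtg

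The libraries held 13.9 to 26.3 M reads with a median of 19.1 M reads, as recovered from the RPKM values. Control day 6 replicate 2 and *p53*(RNAi) day 9 replicate 1 stood furthest from their replicates over all transcripts. The targeted genes followed their labels. At day 9, *chd4* measured 10.6 ± 0.155 RPKM after its own knockdown and 43.4 ± 0.421 RPKM in control (SD, n = 3 each). *p53* (SMED30026364) was itself the member with rank 6. Its control values were 40.6, 39.2 and 39.4 RPKM at day 3 and 31.1, 32.5 and 31.1 RPKM at day 18. In *p53*(RNAi) they were 11.9, 11.6 and 11.03 RPKM at day 3, 6.05, 8.79 and 4.33 RPKM at day 9, and 1.48 and 1.801 RPKM at day 18. No *p53*(RNAi) library overlapped the control of its day. Since the dsRNA was directed at it, *p53* shows the knockdown and its values are not those of a response. Counts of all 80 members and of the transcripts named by rule include it.

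On the days that chose them, the members lost RNA quickly and unevenly. In *p53*(RNAi) the median member stood at 51.3% of control at day 3 and at 33.1% at day 6, each from group means of RPKM. At day 3, 36 of 80 members were under 50% of control, and at day 6 all 80 were. The day 6 difference was below the day 3 difference in 73 members. At day 3, 75 of 80 members had every *p53*(RNAi) library below every control library, beside 8.21% of all 25079 transcripts tested, and at day 6 again 75, beside 9.94%. These shares follow from the selection and are given as a description. The lowest value of the selection was that of SMED30011419, which has no annotation. It was at 900, 776 and 834 RPKM in control at day 3 and at 214, 224 and 191 RPKM in *p53*(RNAi). By day 6 its control values were 862.02, 965 and 889 RPKM against 97.9, 68.7 and 71.8 RPKM in *p53*(RNAi). All 3 treated libraries were far below control on both days, and the gap widened between them.

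Days 9 to 18 did not enter the selecting value. Their libraries did count toward the mean of 2 RPKM over the 50 libraries, so the selection was not fully separate from them. They were tested with limma over all 25079 transcripts. A transcript was called where the Benjamini-Hochberg adjusted p was under 0.05 and the log2 change was beyond 1. At day 9, 71 of 80 members were lower in *p53*(RNAi), beside 1.48% of all transcripts. The counts were 69 at day 12 (1.53% of all), 71 at day 15 (2.25%) and 71 at day 18 (3.56%), and 0 members were higher on any of these days, also at an unadjusted limma p under 0.05. Without the pair of libraries that stood apart, 72, 69, 71 and 72 members were lower on the 4 days. Only the day 9 comparison lost a library in this way, so on the later days only the shared spread could change. The median log2 change of the members was -2.38, -2.54, -2.69 and -2.91 on days 9, 12, 15 and 18, where that of all transcripts was within 0.01 of 0. At day 18 the median member was at 10.3% of control, and 39 members were under 10%. Fewer cells that express a transcript and less of it per cell cannot be told apart in RNA from whole worms. The same 68 members were lower on all 4 days, 5 on some of them and 7 on none. The share of all transcripts lower on all 4 days was not counted, and it cannot exceed the 1.48% of day 9. Since transcripts lower in *p53*(RNAi) grew from 371 at day 9 to 894 at day 18 over the whole data set, the members made up 19.1% of them at day 9 and 7.94% at day 18.

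**Figure D1:**
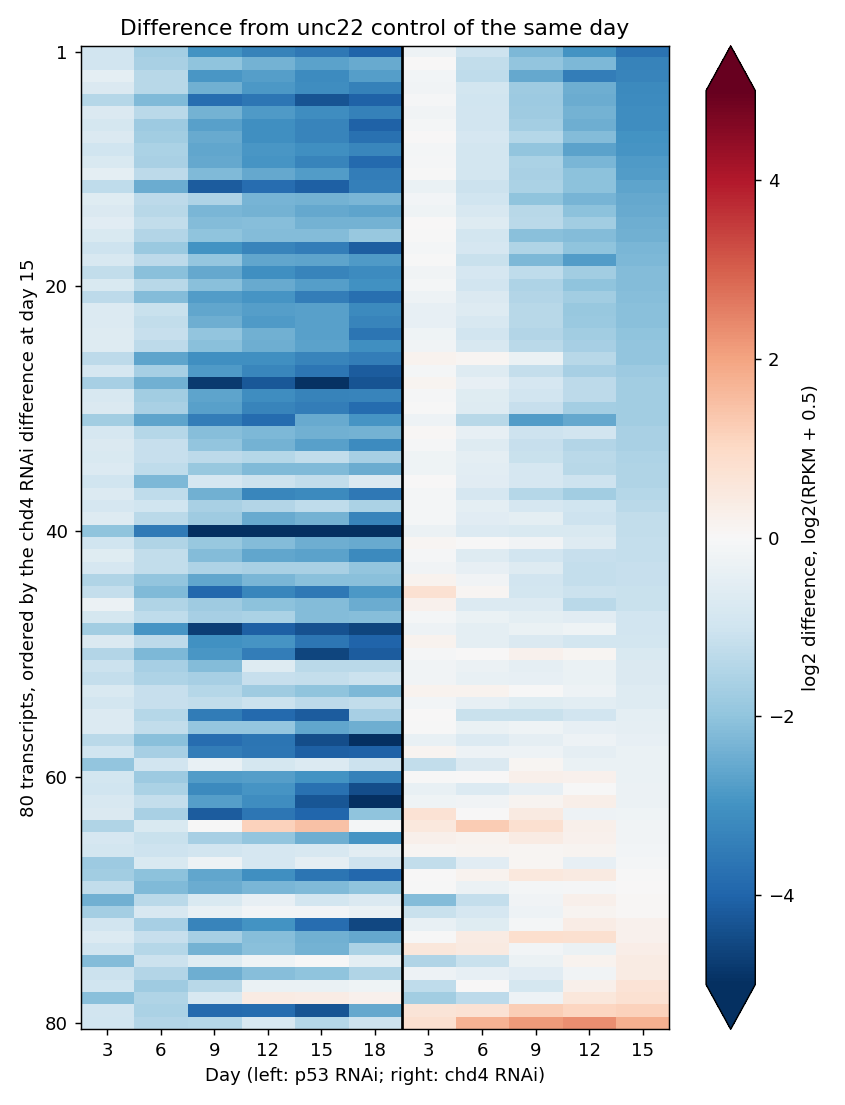
The log2 difference from control of the same day for the 80 transcripts (rows), by day, in *p53*(RNAi) (left of the black line) and *chd4*(RNAi) (right), in order of the *chd4*(RNAi) difference at day 15. Blue is lower and red higher, and the scale ends at -5 and 5. The *p53*(RNAi) columns are blue in nearly every row by day 9, while in the *chd4*(RNAi) columns 46 rows were called lower at day 15 and 2 higher.

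On the log2(RPKM + 0.5) scale, which understates the fall of low transcripts, SMED30011419 fell furthest on all 4 days. At day 9 it was at 900.8, 847.7 and 809 RPKM in control and at 15.1, 5.76 and 12.99 RPKM in *p53*(RNAi) (log2 change -6.28, SE 0.42, limma adjusted p = 4.6e-15). At day 18 control was at 431, 439 and 411 RPKM and *p53*(RNAi) at 4.22 and 2.98 RPKM (log2 change -6.72, SE 0.47, adjusted p = 4.6e-15). The treated libraries were far below control on both days, and control itself was lower at day 18 than at day 9. The next member in rank, SMED30009302, also without annotation, was at 337, 311 and 284 RPKM in control at day 9 and at 12.0, 9.46 and 12.6 RPKM in *p53*(RNAi) (log2 change -4.72, SE 0.21, adjusted p = 1.0e-19). It was followed by SMED30009267, at 20.1, 19.6 and 14.2 RPKM against 1.18, 0.764 and 1.69 RPKM at day 9 (log2 change -3.45).

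At day 12 the *p53*(RNAi) libraries differed among themselves. Replicate 2 held the highest value of its group for 63 of the 68 members that were lower on all 4 days, with a median deviation of 0.45 from the group mean on the log2 scale. Replicate 1 lay on the other side, with a median deviation of -0.43 and the highest value for 2 of the 68. Replicate 3 was between them at -0.006. SMED30011419 was at 3.46, 58.8 and 7.59 RPKM in these libraries, and *p53* at 2.29, 6.63 and 3.38 RPKM. *p53* was thus also highest in replicate 2, and the part of its level in the difference was not tested. Without replicate 2, the count of members lower at day 12 was again 69.

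**Figure D2:**
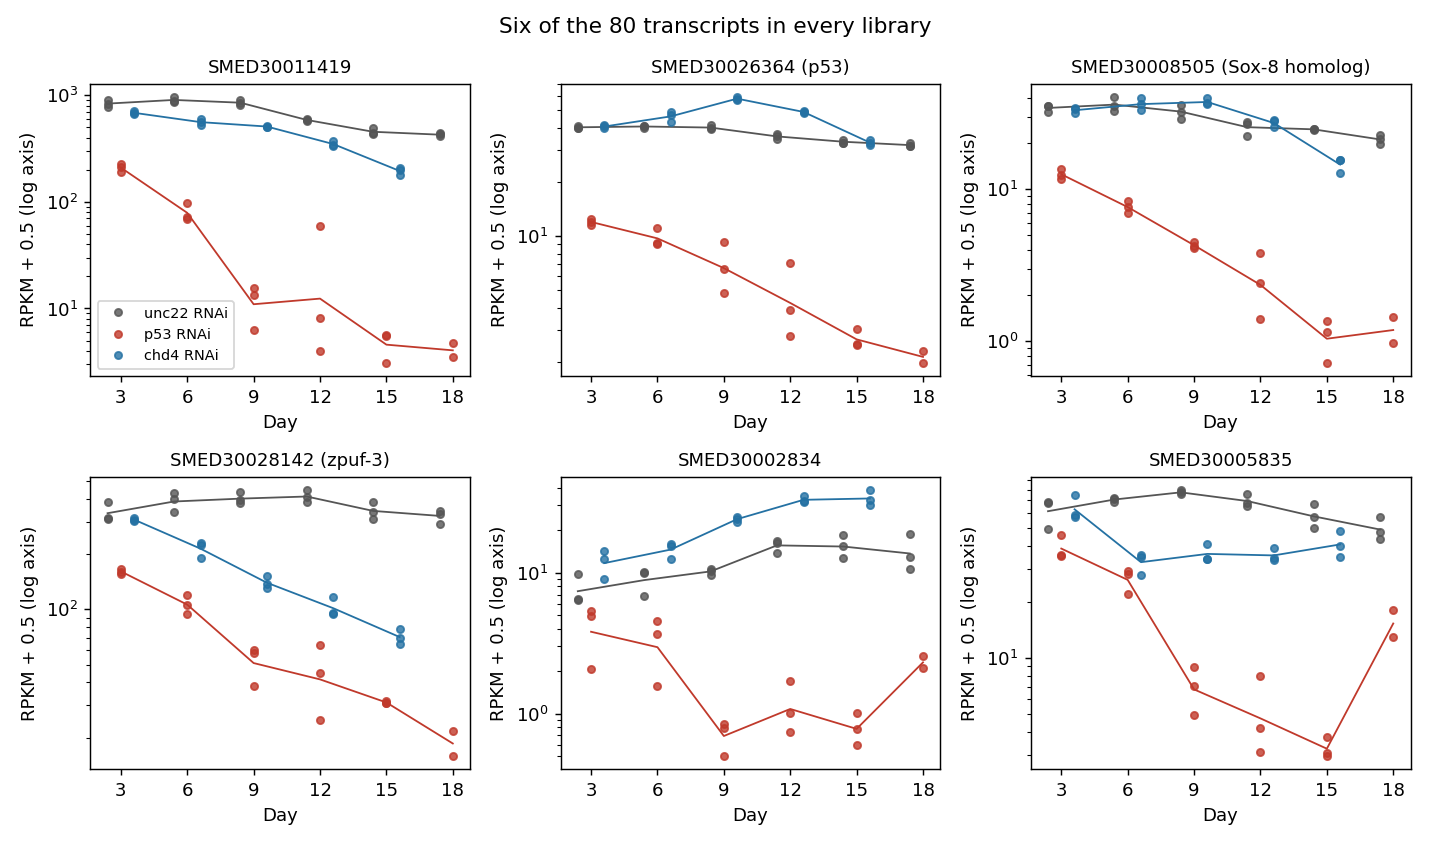
RPKM + 0.5 on a log axis against day for 6 of the 80 transcripts, with a point per library, shifted sideways by treatment, and a line through the geometric means. SMED30011419, *p53* and the Sox-8 homolog fell far in *p53*(RNAi), with the *chd4*(RNAi) libraries of SMED30011419 below control and those of the other two near it or above it until day 12. *zpuf-3* fell in both knockdowns, SMED30002834 rose in *chd4*(RNAi), and SMED30005835 was higher at day 18 than at day 15 in *p53*(RNAi).

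Transcription factors were among the members that fell in *p53*(RNAi) and were not called in *chd4*(RNAi). SMED30008505 is described as Sox-8, a transcription factor of the SOX family known in vertebrates from neural crest and gonad. It was at 35.5, 31.9 and 28.6 RPKM in control at day 9, at 4.01, 3.75 and 3.58 RPKM in *p53*(RNAi) and at 39.1, 36.2 and 35.7 RPKM in *chd4*(RNAi). The *p53*(RNAi) libraries stood alone, and the log2 change was -2.92 (SE 0.19, adjusted p = 1.7e-15) against 0.21 in *chd4*(RNAi), with a tested difference of 3.13 (SE 0.19, adjusted p = 1.8e-16). At day 15 the changes were -4.58 and -0.77, with a difference of 3.81. The *chd4*(RNAi) change of that day had a limma adjusted p of 9.55e-04 but was short of the threshold of 1.
SMED30012332 is described as early growth response protein 1, a zinc finger transcription factor that in vertebrates is switched on quickly by growth signals. At day 15 it was at 29.9, 28.3 and 30.2 RPKM in control, at 3.22, 2.90 and 3.60 RPKM in *p53*(RNAi) and at 24.3, 22.8 and 23.5 RPKM in *chd4*(RNAi). Its replicates were close, with an SE of 0.09 on the log2 changes of -3.01 in *p53*(RNAi) and -0.32 in *chd4*(RNAi), and the difference was 2.69 (adjusted p = 3.4e-24). Its *chd4*(RNAi) change had a limma adjusted p of 0.0057 and was also short of the threshold. Of 30 transcription factors tested, 3 were members. Of the other 27, *p53*(RNAi) lowered 2 and raised 0 by day 9, while by day 18 it had lowered 4 and raised 5, with a median log2 change of -0.06 at day 9. Like the lists by function below, this list holds genes annotated by the study, which chose them on these same libraries. Counts within such lists are therefore not those of an independent sample of a gene family.

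A receptor and a signalling adaptor were named after their values were seen. SMED30034490, described as fibroblast growth factor receptor 1 and expressed in neoblasts and discrete mesenchymal cells, was at 17.1, 17.6 and 17.1 RPKM in control at day 9 and at 6.76, 5.10 and 6.499 RPKM in *p53*(RNAi) (log2 change -1.43, SE 0.09, adjusted p = 2.8e-16). The treated libraries were well below control. In *chd4*(RNAi) it was at 16.9, 16.5 and 17.8 RPKM at day 9, which overlaps control. Its *chd4*(RNAi) log2 change was -0.24 at day 12 (limma adjusted p = 0.028) and -0.66 at day 15 (adjusted p = 3.4e-08). Both changes were below control but short of the threshold of 1, and it was called lower on none of the 3 tested days. SMED30021059 is described as TNF receptor-associated factor 6, an adaptor of receptors of innate immunity in mammals. It fell in both knockdowns, to a log2 change of -1.64 at day 18 in *p53*(RNAi) and -1.53 at day 15 in *chd4*(RNAi).

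Calcium-binding proteins of the secretory pathway with EF-hand motifs formed a small group of 5, of which 4 were members and 1 was not. Nucleobindin-1 (SMED30002242), a Golgi-associated calcium-binding protein, was at 27.2, 26.5 and 25.5 RPKM in control at day 9, at 1.46, 0.729 and 0.910 RPKM in *p53*(RNAi) and at 9.26, 8.63 and 7.93 RPKM in *chd4*(RNAi). The 3 groups did not overlap, with log2 changes of -4.16 (SE 0.20, adjusted p = 3.9e-19) and -1.57 (adjusted p = 4.4e-08). A second nucleobindin-1 transcript, SMED30031061, named after its values were seen, changed less, by -1.90 and -0.83. Both calumenin-A transcripts, which encode a protein of the endoplasmic reticulum, were members. SMED30026101 was at 17.2, 16.96 and 18.5 RPKM in control at day 18 and at 0.775 and 0.871 RPKM in *p53*(RNAi) (log2 change -3.77, SE 0.18, adjusted p = 5.3e-20). SMED30003044 changed by -3.16 on that day. The fifth of the group was not lower in either knockdown, with a log2 change of 0.92 in *p53*(RNAi) at day 18 and 1.19 in *chd4*(RNAi) at day 15, where it was called higher.

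Enzymes and transporters were few. SMED30020964, described as MOCS3, which activates a sulfur carrier in molybdenum cofactor synthesis, was at 6.44, 5.79 and 5.58 RPKM in control at day 9 and at 0.363, 0.235 and 0.208 RPKM in *p53*(RNAi) (log2 change -3.07, SE 0.18, adjusted p = 1.1e-16). In *chd4*(RNAi) it was at 4.36, 4.66 and 4.84 RPKM at day 9, not called, and at 1.53, 0.973 and 1.39 RPKM at day 15, where control was at 6.64, 6.22 and 6.56 RPKM (log2 change -1.97). It was lower in *p53*(RNAi) on all 4 days and in *chd4*(RNAi) from day 12. *gatm* (SMED30032169), a glycine amidinotransferase of the first step of creatine synthesis, was at 50.7, 50.4 and 49.5 RPKM in control at day 18 and at 6.74 and 3.99 RPKM in *p53*(RNAi) (log2 change -3.15). Of the other 8 creatine and polyamine enzymes, 5 were lower at day 9 and 7 at day 18. A cytochrome P450 described as 2A3 (SMED30026757), an oxidizing enzyme of foreign compounds in mammals, changed by -2.60 at day 9 and -2.07 at day 18 in *p53*(RNAi). Of the other 25 cytochrome P450 transcripts, 5 and 9 were lower and 0 and 4 higher on these days. The transporters SMED30021257, described as SVOPL, and SMED30016659, described as an organic cation transporter, were lower in *p53*(RNAi) on all 4 days, while of the other 100 membrane transporters 14 fell and 4 rose by day 9, while by day 18 there were 26 that fell and 15 that rose. *gatm* and both transporters were named after their values were seen.

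The *zpuf* genes, planarian genes without known protein domains, included 3 members and all 7 were lower in *p53*(RNAi) at day 18. *zpuf-3* (SMED30028142) was at 433, 390 and 377 RPKM in control at day 9, at 59.2, 37.8 and 57.4 RPKM in *p53*(RNAi) and at 151, 130 and 137 RPKM in *chd4*(RNAi). No libraries overlapped between groups, and the log2 changes were -2.97 (SE 0.18, adjusted p = 1.8e-16) and -1.52 (adjusted p = 6.0e-09). *zpuf-7* (SMED30006083) and *zpuf-4* (SMED30018924), the latter named after its values were seen, changed by -2.52 and -2.57 in *p53*(RNAi) and by -1.42 and -1.58 in *chd4*(RNAi) at day 9. The other 4 *zpuf* genes had a median of -1.27 in *p53*(RNAi) at day 9, and 2 of them were lower.

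The 21 members with an *AGAT-1* mesenchymal pattern were lower in *p53*(RNAi) on every day tested, and their log2 changes at day 18 ran from -4.33 to -2.07. In *chd4*(RNAi) 15 of the 21 were lower at day 9, beside 2.07% of all transcripts, and all 21 at days 12 (3.27% of all) and 15 (3.87%), with a median log2 change of -2.17 at day 15. The study took most genes for in situ hybridization from transcripts lower in both knockdowns and some from those lower in *p53*(RNAi) alone, so this count is not independent evidence. The remaining 59 members had 25 lower in *chd4*(RNAi) at day 15, with a median of -0.73. Among them SMED30011447, described with a hazy pattern in cells likely lost on irradiation, changed by -2.96, and SMED30019743, with a very weak gut pattern, by -1.19. Of the 37 genes with the *AGAT-1* mesenchymal pattern that were not members, 27 were lower in *p53*(RNAi) at day 9 and 33 at day 18, with medians of -1.35 and -2.29. *AGAT-1* itself (SMED30018353) had rank 98 and was not a member. It was at 81.4 ± 7.32 RPKM (SD, n = 3) in *p53*(RNAi) at day 9 against 245 ± 16.2 in control (n = 3).

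Other patterns held few members. Epidermal, gut and neoblast patterns each included 1 or 2 of the 80, and outside the members 0 of 9, 12 of 38 and 1 of 19 genes were lower in *p53*(RNAi) at day 9 by limma. At an unadjusted p under 0.05, 8 of the 9 epidermal genes were lower. The neoblast genes had a median log2 change of 0.20 at day 9 and -1.36 at day 18 outside the members. *smedwi-1*, a piwi gene that marks neoblasts, was at 292 ± 9.95 RPKM in *p53*(RNAi) at day 9 against 228 ± 13.3 in control (n = 3 each; log2 change 0.36, adjusted p = 0.016, limma) and at 21.6 ± 5.79 RPKM (n = 2) at day 18 against 163 ± 3.10 (log2 change -2.91, adjusted p = 4.0e-21). No DNA replication and cell cycle gene among the 32 tested was a member, and limma called 0 lower at day 9 and 28 at day 18. At an unadjusted p under 0.05, 1 of the 32 was lower and 26 were higher at day 9. Over all 21 genes with a neoblast pattern, members included, 3 were lower at day 9. Most of these markers of dividing cells were thus not called lower at day 9. The study chose the genes of these lists on the same libraries, so setting them beside the members is a description.

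The *chd4* knockdown asks which of the members depend on both genes. On days 9, 12 and 15 limma called 33, 42 and 46 of 80 members lower in *chd4*(RNAi), beside 2.07%, 3.27% and 3.87% of all transcripts. At day 15, 2 members were higher, beside 1.99% of all. The median log2 change was -0.83, -1.06 and -1.21 on these days. Days 3 and 6 of *chd4*(RNAi) share control libraries with the selection and give values only. The median member stood at 93.2% of control at day 3 and at 64.1% at day 6. The direct test put *p53*(RNAi) below *chd4*(RNAi) for 48 members at day 9 (1.24% of all transcripts), 41 at day 12 (1.53%) and 41 at day 15 (1.95%). No member was called the other way, beside 0.977%, 1.79% and 2.44% of all transcripts. At an unadjusted limma p under 0.05, 1, 1 and 3 members leaned that way. The members were chosen on low values in *p53*(RNAi) and not in *chd4*(RNAi), so the selection itself favoured this direction.

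**Figure D3:**
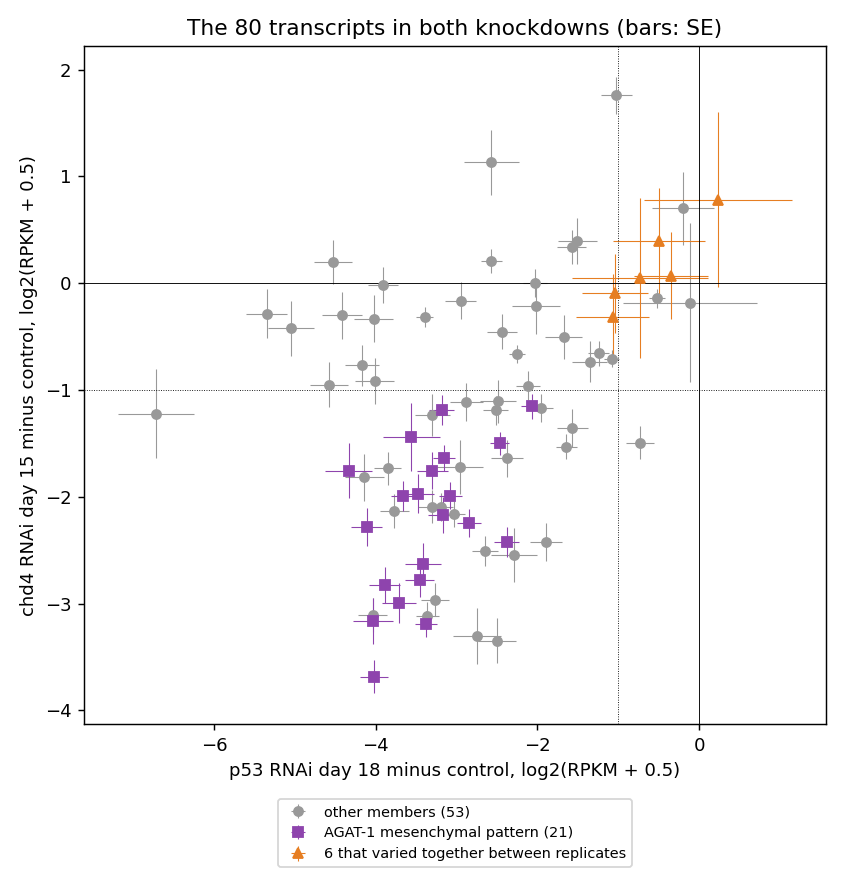
Log2 change against control in *p53*(RNAi) at day 18 (x axis) and *chd4*(RNAi) at day 15 (y axis) for the 80 transcripts, with SE from limma. The control libraries of the 2 axes differ. The dotted lines are at -1. All 21 members with an *AGAT-1* mesenchymal pattern (squares) lie below and left of both, the 6 that varied together between replicates (triangles) lie between -1.07 and 0.23 on the x axis and between -0.32 and 0.78 on the y axis, and the other 53 (circles) reach from both-lower to *chd4*-higher.

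By the calls at day 15 the members fell into a larger set of 46 lower in both knockdowns and a set of 22 lower in *p53*(RNAi) and lower there than in *chd4*(RNAi) but not called lower in *chd4*(RNAi). The *chd4*(RNAi) changes of the 22 ran from -0.96 to 1.76. Some were below control but short of the threshold of 1, such as SMED30009302 at -0.95 (limma adjusted p = 3.3e-04). A further 3 were lower in *p53*(RNAi) only, with no call on the difference, and 9 in neither. In the set of 46 the median change was -2.75 in *p53*(RNAi) and -2.04 in *chd4*(RNAi) at day 15. An in situ pattern was given for 25 of the 46, and 21 had the *AGAT-1* mesenchymal pattern. In the set of 22 the medians were -3.62 and -0.29. Only 3 of the 22 had any in situ pattern, and 0 had the *AGAT-1* mesenchymal one. Most genes for in situ hybridization were taken from transcripts lower in both knockdowns, so the pattern counts of the 2 sets cannot be compared. The set of 22 was formed from these calls, so its medians are a description. Without *p53* itself, 21 members were called lower in *p53*(RNAi) on all 4 days and called lower in *chd4*(RNAi) on none. These combinations of calls were not counted over all transcripts, of which 1.48% were lower in *p53*(RNAi) at day 9 and 2.25% at day 15.

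The set of 46 reached its lowest values in *chd4*(RNAi) in 3 members. SMED30025603, with an *AGAT-1* mesenchymal pattern, was at 73.3, 65.9 and 68.9 RPKM in control at day 15, at 5.59, 4.81 and 5.60 RPKM in *p53*(RNAi) and at 4.66, 4.12 and 6.18 RPKM in *chd4*(RNAi). The libraries of both knockdowns overlapped each other, the log2 changes were -3.58 and -3.69 (SE 0.15), and the difference of -0.10 was not called (SE 0.15, adjusted p = 0.68). SMED30033892 changed by -2.68 and -3.35 and SMED30019499 by -3.16 and -3.30 at day 15, both without annotation.

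In the set of 22, SMED30014876, an unannotated transcript named after its values were seen, was among the most abundant. It was at 823, 870 and 838 RPKM in control at day 18 and at 33.9 and 18.4 RPKM in *p53*(RNAi), a log2 change of -5.05 (SE 0.29, adjusted p = 1.0e-17). At day 15 its *chd4*(RNAi) libraries were at 730, 647 and 715 RPKM against 886 to 1009.6 RPKM in control, which was not called (log2 change -0.42, adjusted p = 0.21). SMED30035904, also without annotation, was at 539, 564 and 564 RPKM in *chd4*(RNAi) at day 9 and at 572, 511 and 455 RPKM in control, so these groups overlapped. Its *p53*(RNAi) libraries were at 102, 58.6 and 73.0 RPKM on that day, below both.

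SMED30019921 and SMED30002834, both unannotated, were the 2 members called higher in *chd4*(RNAi) at day 15, and they were lower in *p53*(RNAi) on that day. SMED30002834 was at 18.0, 15.0 and 12.1 RPKM in control at day 15, at 0.281, 0.0962 and 0.512 RPKM in *p53*(RNAi) and at 29.6, 38.03 and 32.4 RPKM in *chd4*(RNAi). The 3 groups did not overlap, and the changes were -4.30 (SE 0.30, adjusted p = 1.1e-14) and 1.13 (SE 0.30, adjusted p = 0.0024). SMED30019921 was at 1.11, 1.35 and 1.78 RPKM in control, at 0.172, 0.352 and 0.125 RPKM in *p53*(RNAi) and at 6.06, 6.24 and 5.48 RPKM in *chd4*(RNAi) at day 15 (log2 changes -1.42 and 1.76).

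Within *p53*(RNAi) the difference from control grew further between day 9 and day 18 for 19 members by limma, beside 2.67% of all transcripts, and shrank for 4, beside 1.38%. Without *p53*(RNAi) day 18 replicate 3, 1 of the 2 libraries of that group, the count of 19 was 11, of which 9 were among the 19, and with a pseudocount of 2 it was 9. SMED30035904 changed most, from -2.74 at day 9 to -5.35 at day 18 (difference -2.61, SE 0.34, adjusted p = 1.4e-07). Its *p53*(RNAi) libraries were at 5.53 and 6.197 RPKM at day 18, against 257, 258 and 261 RPKM in control. SMED30014713, with an *AGAT-1* mesenchymal pattern, went from -1.98 to -3.66, and SMED30030192 from -1.77 to -3.30.

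The 4 members whose difference shrank were all unannotated. SMED30005835 was at 6.53, 4.42 and 8.46 RPKM in *p53*(RNAi) at day 9, at 2.47, 2.57 and 3.25 RPKM at day 15 and at 17.7 and 12.4 RPKM at day 18. Both day 18 libraries were above all libraries of days 9 to 15 and below the 56.4, 46.8 and 42.8 RPKM of control. Its log2 change went from -3.52 at day 9 to -1.68 at day 18 (difference 1.84, SE 0.31, adjusted p = 1.3e-05). SMED30004108 was at 0.153, 0 and 0.132 RPKM at day 9 and at 2.77 and 2.00 RPKM at day 18, where control was at 18.0, 9.21 and 8.17 RPKM (difference 2.16, SE 0.40). SMED30002834 had a difference of 1.31 (SE 0.46, adjusted p = 0.028), and SMED30034619, named because the count is small, 1.06. The *p53*(RNAi) means of SMED30034619 were 0.0689 RPKM at day 9 and 0.221 RPKM at day 18, both under the added 0.5. Its control means fell from 8.13 to 4.88 RPKM between these days. All 4 were called lower in *p53*(RNAi) at day 18 as well.

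In *chd4*(RNAi) the difference grew between day 9 and day 15 for 15 members by limma, beside 1.53% of all transcripts, and 9 of them had an *AGAT-1* mesenchymal pattern. It grew most for SMED30020964, the MOCS3 transcript, by -1.64 (SE 0.25, adjusted p = 5.6e-06). With a pseudocount of 2 the count was 8. The difference from control moved upward between the days for 2 members, beside 0.841% of all transcripts. SMED30009267 went from -2.78 at day 9 to -1.72 at day 15, and SMED30003487, named because the count is small, from -0.86 to 0.70, neither of which was called. Their RNA in *chd4*(RNAi) did not rise between days 9 and 15. Group means in *chd4*(RNAi) went from 2.22 to 0.824 RPKM for SMED30009267 and from 3.41 to 1.44 RPKM for SMED30003487. In control they went from 17.97 to 3.92 RPKM and from 6.30 to 0.720 RPKM. Both also fell in control between days 9 and 18.

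Control levels were not steady for every member. Between days 9 and 18 limma called 6 members lower in control, beside 0.383% of all transcripts, and 2 higher, beside 0.207%. SMED30009302 fell by 1.00 and SMED30009267 by 1.73 on the log2 scale. SMED30003487 was at 7.72, 5.16 and 6.02 RPKM in control at day 9 and at 0.268, 0.262 and 0.859 RPKM at day 18, close to its *p53*(RNAi) values of 0.210 and 0.419 RPKM, and it was called lower in *p53*(RNAi) at day 9 only.

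The 7 members lower in *p53*(RNAi) on none of the later days and SMED30022831, lower at day 18 only, included 6 that varied together between replicate libraries. Across the 50 libraries the correlation of their deviations from group means was between 0.787 and 0.981 for the 15 pairs, a description over libraries that share groups. All 6 had their highest value in control day 3 replicate 2, and SMED30032663 was at 483.5, 2070 and 902 RPKM in the day 3 control libraries and at 324, 1199 and 335 RPKM in those of day 6. In *p53*(RNAi) it was at 197, 351 and 217 RPKM at day 3. On each day a single control library, replicate 2, held the highest value. At day 9 it was at 262, 343 and 443 RPKM in control and at 286, 182 and 355 RPKM in *p53*(RNAi), which overlap. SMED30023781, with rank 7, was at 44.1, 209 and 89.3 RPKM in control at day 3 and at 9.23, 51.1 and 10.5 RPKM in *p53*(RNAi), and SMED30001888, with rank 10, at 10.6, 60.4 and 8.79 RPKM against 1.83, 13.5 and 1.90 RPKM. Both overlapped at day 3 despite their ranks, and both were called on no later day. With control day 3 replicate 2 and control day 6 replicate 2 left out, the rule kept 76 of the 80 members, and 2 of the 4 lost, SMED30022831 and SMED30027385, were among the 6. SMED30025753 varied on its own, from 200.025 to 2324 RPKM within the day 3 controls, and SMED30027343 was steadily below control in *p53*(RNAi), with log2 changes from -0.97 at day 9 to -0.52 at day 18, short of the threshold of 1. The members of this paragraph other than SMED30023781 and SMED30001888 were named after their values were seen.

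**Figure D4:**
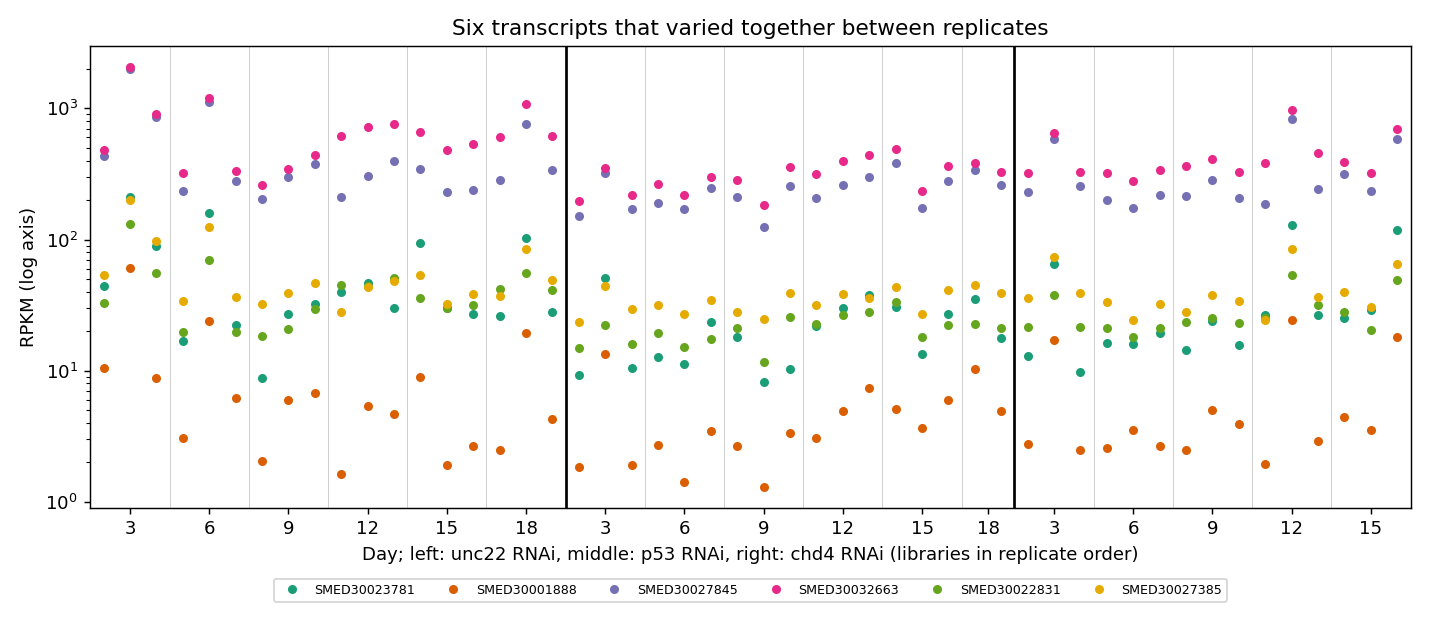
RPKM on a log axis of the 6 transcripts that varied together, in the 50 libraries in order of RNAi, day and replicate. The points rise and fall together, with the highest in control day 3 replicate 2 and further peaks in control day 6 replicate 2, *chd4*(RNAi) day 12 replicate 2 and *chd4*(RNAi) day 15 replicate 3.

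Some members may share reads. The paper states that the transcript set was first reduced with the program CD-HIT to represent each locus uniquely. The alignment allowed a read to match several transcripts, so any near-identical transcripts that remained cannot be fully told apart. Their values are uncertain to that extent. SMED30026394 and SMED30030996 had a correlation of 0.9995 across the 50 libraries, and their log2 ratio had an SD of 0.0436. SMED30005838 and *zpuf-4* had a correlation of 0.997 with an SD of 0.115, and *zpuf-3* and SMED30005838 one of 0.982 with an SD of 0.260. SMED30014876, SMED30025741 and SMED30002134 had correlations of 0.992 to 0.995 with each other, with SDs from 0.184 to 0.287. These pairs were named after their values were seen, and other pairs also had high correlations. Whether any of them share sequence was not tested. Transcripts of 1 gene would count as 1 member, which would lower the counts.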

How the data were processed

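RNA was sequenced from whole planarians in 50 libraries of 17 groups. The authors made stranded poly(A) libraries, processed reads with CASAVA 1.8.2 and Bowtie, and deposited RPKM for 35057 transcripts. The study's notes also name edgeR, which needs counts and was not run on these values. Columns of the authors' own fold changes and p-values in the supplementary files were not used, and 0 columns of other series were present. RPKM + 0.5 was put on a log2 scale and fitted with limma 3.58.1 (R 4.3.3) with an intensity trend, all 17 groups in 1 fit, over the 25079 transcripts with at least 1 RPKM in 2 or more libraries, which left out 9978. Fold changes are on the log2(RPKM + 0.5) scale and understate those of low transcripts. Tests were two-sided with Benjamini-Hochberg adjustment over all transcripts tested. Tables and plots used Python 3.11.15, pandas 2.3.3, numpy 2.4.6 and matplotlib 3.10.9.

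The members and gene lists were chosen with earlier results of these data known. The transcripts named were the 12 with the lowest selecting value, the first 16 with a gene name, in situ pattern or description, the 3 lowest and 3 highest in *chd4*(RNAi) at day 15 and in the change from day 9 to day 18 in *p53*(RNAi), reference genes, and transcripts at the edge of the selection. Others are said in the text to be named after their values were seen. On simulated data of 25079 transcripts with 50 lowered by 1.5 on the log2 scale in one *p53*(RNAi) group at day 9, all 50 were called. The lowered transcripts were drawn only from those above a minimum level in control, and the noise was independent between transcripts. Recovery of low transcripts, or of those that vary together, was not tested. Alternatives were pseudocounts of 0.1 and 2, no filter, median-ratio scaling (factors from 0.991 to 1.03), no trend, only the groups compared, a replicate block and each replicate left out.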

Additional observations from a re-analysis of the deposited data

Results flagged for a closer look

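Among the transcripts chosen by the naming rule, the *chd4*(RNAi) and *p53*(RNAi) effects at day 15 differed by limma for 20. The difference, *chd4*(RNAi) minus *p53*(RNAi) on the log2(RPKM + 0.5) scale, was for SMED30011419 5.41, SMED30009302 3.40, SMED30024165 3.18, SMED30020964 1.32, SMED30026364 3.63, SMED30002242 1.45, SMED30008505 3.81, SMED30002356 1.14, SMED30026101 1.30, SMED30003044 1.14, SMED30028142 1.18, SMED30012332 2.69, SMED30022130 1.58, SMED30002834 5.43, SMED30019743 1.27, SMED30019921 3.18, SMED30004108 3.75, SMED30005835 3.64, SMED30030192 1.13 and SMED30035904 3.98. All are positive, so RNA was lower in *p53*(RNAi), the knockdown on which the members were chosen. The naming rule also took the extremes of *chd4*(RNAi) at day 15, so this count partly follows from the choice. Over all transcripts, 1.95% were called in this direction. SMED30026364 is *p53* itself, the target of the dsRNA, so its values here and in the comparison of days show the knockdown.

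For 11 of the transcripts chosen by the naming rule, the *p53*(RNAi) effect differed between day 18 and day 9. Over all transcripts, 2.67% were called lower and 1.38% higher in this comparison. The naming rule took the 3 lowest and 3 highest members of this same difference, so the count of 11 partly follows from the choice. The day 18 effect minus the day 9 effect was for SMED30026364 -1.31, SMED30008505 -1.25, SMED30028142 -1.14, SMED30025603 -1.01, SMED30002834 1.31, SMED30006083 -1.20, SMED30004108 2.16, SMED30005835 1.84, SMED30030192 -1.53, SMED30035904 -2.61 and SMED30014713 -1.68. The 2 libraries of *p53*(RNAi) at day 18 carry these values. No explanation was tested for any of these differences.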

How the results depend on the processing

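No result reversed. With a pseudocount of 2, the count of members whose *p53*(RNAi) effect grew from day 9 to day 18 was 9 in place of 19, and of those whose *chd4*(RNAi) effect grew from day 9 to day 15 it was 8 in place of 15. The cause was not tested. With each library left out in turn, members lower in *p53*(RNAi) numbered 71 to 72 at day 9, 67 to 69 at day 12, 71 at day 15 and 69 to 70 at day 18. Those lower in *chd4*(RNAi) numbered 32 to 35, 41 to 44 and 45 to 48 on days 9, 12 and 15, and those lower in *p53*(RNAi) than in *chd4*(RNAi) 43 to 51, 36 to 46 and 39 to 40. The growing *p53*(RNAi) effect was called for 11 to 27 members, the growing *chd4*(RNAi) effect for 13 to 16 and a fall in control for 4 to 8. The lone library left at day 18 is then assumed to vary like the other groups. Without control day 6 replicate 2 and *p53*(RNAi) day 9 replicate 1, chosen after seeing the data, the *p53*(RNAi) counts were 72, 69, 71 and 72 on days 9 to 18. Neither library belongs to the groups compared on days 12 to 18, so those counts could change only through the shared spread. The replicate numbers did not pair the samples, with correlations of deviations from -0.0363 to 0.145 over 47 pairs (median 0.0277). With the replicate number as a block the *p53*(RNAi) counts were 71, 69, 71 and 72, and the other counts were 33, 42 and 46 in *chd4*(RNAi), 48, 41 and 41 for the difference, 19 and 15 for the growing effects and 6 in control. For the named transcripts, 1625 results kept their direction and side of the threshold, 19 lost the call and 6 gained it. The selection without single libraries kept 77 to 79 of the 80 members. Depth limits transcripts near 1 RPKM most.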
